A study of Mus musculus with 25 samples.

Results

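Non-tumor liver of 8-month-old mice lacking Mcl-1 in hepatocytes was compared with liver of 2-month-old mice of the same genotype, across all 27020 genes that gave a usable signal. Samples were chosen by their labels alone. The older group held the 3 knockout samples of 8 months whose names mark non-tumor tissue (animals 1347, 1287 and 934), and the younger group the 3 knockout samples of 2 months (animals 137, 64 and 69). These 6 arrays came from a series of 25 single-colour arrays hybridised with RNA from homogenised liver of untreated mice. Each 8-month animal also gave a tumor sample, so the older group is non-tumor tissue of tumor-bearing livers, while no tumor sample is given for the 2-month animals. Further groups used below were 4 knockout non-tumor samples of 12 months, 3 wild-type mice of 12 months and 2 wild-type mice of 2 months, and 3 hemizygous mice of 2 months contributed to the estimate of the spread. The mice are described as littermates. The promoter that drives the deletion, the strain and the sex are not given in the labels, and each array holds 1 animal.

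Mcl-1 is a BCL-2 family protein that binds BAK and BH3-only proteins at the mitochondrial outer membrane and so keeps cells from releasing cytochrome c. Hepatocytes depend on it together with its relative Bcl-xL, and its loss from hepatocytes is known to cause spontaneous apoptosis, compensatory division, chronic liver damage and, with age, liver tumors. Whole liver RNA holds hepatocytes together with biliary, stellate, endothelial and immune cells, in which a hepatocyte-specific deletion leaves Mcl1 intact. The comparison follows such livers over age, outside tumor tissue.

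The 6 arrays differed in slide, in sex and in the spread of repeated probes. Between 65.9% and 69.0% of probes were well above background on the 8-month arrays, and between 64.1% and 70.0% on the 2-month arrays. The median coefficient of variation of repeated probes was 7.03%, 5.74% and 7.17% on the 8-month arrays, against 7.56%, 15.5% and 13.4% on the 2-month arrays, so 2-month animals 64 and 69 had the widest spread. No slide held arrays of both groups, so that slide and group cannot be told apart. The Y-linked transcript Ddx3y was well above background in animal 934 of the 8-month group and in animals 137 and 64 of the 2-month group, and in none of the other 3 animals. Xist, transcribed from the inactive X chromosome, had levels of -1.98 and -1.23 in 8-month animals 1347 and 1287 and -4.98 in animal 934, against -0.61 in 2-month animal 69 and -7.73 and -7.98 in animals 137 and 64. By these transcripts 1 of 3 animals was male at 8 months, against 2 of 3 at 2 months.

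Animal 934 stood apart from the other 8-month animals. Over 26844 genes its levels correlated with those of 8-month animals 1347 and 1287 at r = 0.944 and 0.950, and with those of 2-month animal 137 at r = 0.958, as a description over genes of one array design. Animals 1347 and 1287 correlated at r = 0.960. On 2206 genes animal 934 lay at least 1 below both other 8-month arrays, and on 2428 genes at least 1 above both, on a log2 scale. The corresponding counts were 1495 and 1754 for animal 1347 and 1866 and 846 for animal 1287. The 8-month arrays were compared with the 2-month arrays once more among the animals with Ddx3y (934 against 137 and 64) and among those without it (1347 and 1287 against 69). These are values with no test. The part that sex or slide had in the results was not tested.

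A level is the log2 of an array's background-subtracted signal minus that array's 75th percentile, so 0 marks a probe at that percentile and a difference of 1 is a 2-fold difference in signal. Mcl1, the deleted gene (chromosome 3), had levels of 3.06, 2.83 and 1.68 in 8-month animals 1347, 1287 and 934, against 1.84, 1.53 and 2.09 in 2-month animals 137, 64 and 69. Animals 1347 and 1287 lay above all 2-month animals and animal 934 lay among them. The mean was 2.53 ± 0.74 at 8 months and 1.82 ± 0.28 at 2 months (SD, n = 3 each). The difference was 0.71 (SE 0.33) with an adjusted p of 0.316 in limma, which does not pass the threshold of 0.05. Without animal 934 it was 1.13. The second probe of the gene gave a difference of 1.21. In wild-type liver Mcl1 averaged 4.28 at 12 months and 4.26 at 2 months, above every knockout array of either age. Which part of the transcript the probes cover, and so whether they lie in the deleted part, was not tested.

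No gene passed an adjusted p of 0.05 between 8 and 2 months (0 of 27020, 0.0%), and the smallest adjusted p was 0.124. At an unadjusted p under 0.05 there were 4333 genes, or 16.0%. Of these, 2286 genes (8.46%) were higher and 2047 (7.58%) lower at 8 months. The 3 arrays of each age did not overlap on 6556 genes (24.3%), of which 3433 (12.7%) were higher and 3123 (11.6%) lower at 8 months. The median difference over all genes was -0.02, and the median SE of a difference was 0.50. Of all genes, 49.0% lay above 0. A difference of at least 1 in either direction was measured for 4998 genes. The count depended on the processing: after normexp background correction with quantile normalization 385 genes (1.42%) passed, 194 higher and 191 lower. In the series matrix deposited by the authors 194 genes (0.718%) passed, 91 higher and 103 lower, and 187 genes with the same sign passed in both. No local background was subtracted from the values whose ranks the matrix follows. The bar plot of genes past the threshold shows these counts beside those of the other settings.

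**Figure D1:**
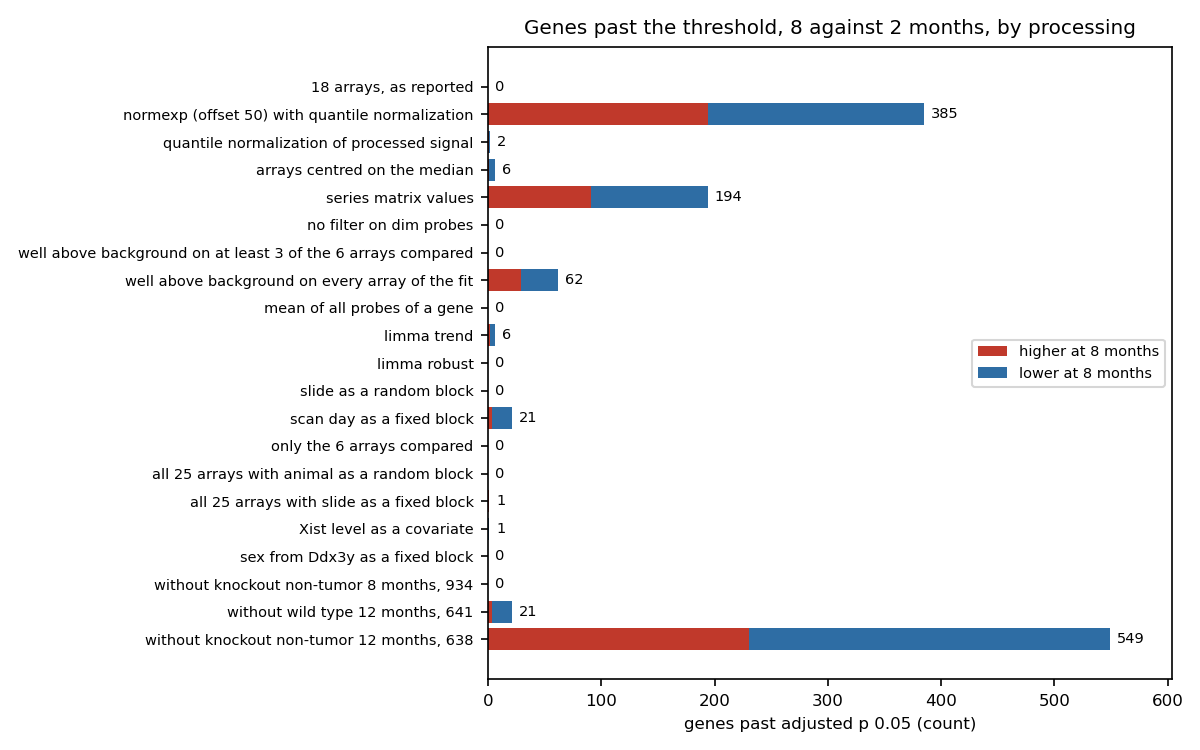
Number of genes past an adjusted p of 0.05 between knockout non-tumor liver at 8 months and knockout liver at 2 months (horizontal axis, count from 0) under each processing setting (vertical axis), split into genes higher (red) and lower (blue) at 8 months. The reported setting gives 0, normexp with quantile normalization 385, the series matrix 194, and leaving out 1 array of the 12-month knockout group (animal 638) gives 549.

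Leaving out array 638, a 12-month non-tumor array that enters only the estimate of the spread, gave 549 genes (230 higher and 319 lower), and leaving out 12-month wild-type array 641 gave 21. Genes below are therefore given as levels and differences. The first ones were named by the smallest p among genes whose arrays do not overlap and that were well above background on all 3 arrays of the higher group. For these, the lack of overlap follows from the choice. Members of a gene list were named by the smallest p in this same comparison or belong to a panel. The differences of genes with several probes are not fully repeatable between probes: over 4005 genes with 2 or more bright probes, those of the 2 brightest correlated at r = 0.40, and of 430 genes with a difference of at least 1 in size, 318 (74.0%) had the same sign at the second probe.

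Among the genes with the smallest p that were higher at 8 months were Bnip3, Aldh9a1, Dock9, Palmd, Cep57l1 and Rpgr, with differences between 1.16 and 1.50. Bnip3 (chromosome 7), a hypoxia-induced BH3-like protein that directs mitochondria to autophagy, had levels of 5.48, 5.27 and 5.46 in the 8-month animals, against 4.20, 4.04 and 4.49 in the 2-month animals. All 8-month arrays lay above all 2-month arrays, which the choice of these genes required. The difference was 1.16 (SE 0.23, limma adjusted p = 0.138), and it passed after normexp and quantile normalization (adjusted p = 0.0269). In wild-type liver Bnip3 averaged 5.06 at 12 months and 6.09 at 2 months, so the 2-month knockout group was the lowest of these groups.

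Aldh9a1 (chromosome 1), an aldehyde dehydrogenase of carnitine synthesis, had levels of 5.01, 4.93 and 5.33 at 8 months, against 4.19, 3.88 and 3.73 at 2 months, a difference of 1.16 (SE 0.23, limma adjusted p = 0.138). Dock9 (chromosome 14), an exchange factor for the small GTPase Cdc42, had levels of 1.93, 1.59 and 1.75 at 8 months, against 0.69, -0.06 and 0.12 at 2 months, a difference of 1.50 (SE 0.28). Without animal 934 the differences were 1.03 for Aldh9a1 and 1.51 for Dock9. The other probe of Aldh9a1 gave -1.05, of the opposite sign, and that of Dock9 gave 0.75. Palmd, which encodes palmdelphin, differed by 1.23 (SE 0.24), Cep57l1, a relative of the centrosomal protein Cep57, by 1.48 (SE 0.29), and Rpgr, a protein of the ciliary transition zone, by 1.22 (SE 0.22). The other probes gave 0.78 and 0.74 for Rpgr and 1.12 and -0.21 for Cep57l1. Dock9, Cep57l1, Aldh9a1 and Palmd passed after normexp and quantile normalization, and Rpgr did not (adjusted p = 0.0530).

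Dppa3 and Eml6 were well above background on all 8-month arrays and on no 2-month knockout array. Dppa3 (chromosome 6), a maternal factor that protects DNA methylation in the early embryo, had dim levels of -3.84, -3.74 and -4.84 in the 8-month animals, against -7.88, -7.84 and -7.30 in the 2-month animals, where it was not well above background on any array. Measured against the lowest signal of probes well above background, the 8-month mean was at least 3.35-fold higher (limma adjusted p = 0.124). Eml6 (chromosome 11), of the EMAP family of microtubule-binding proteins, was at least 3.10-fold higher by the same measure, with means of -4.25 at 8 months and -6.08 at 2 months (limma adjusted p = 0.138). In wild-type liver Eml6 averaged -4.86 at 12 months and -6.73 at 2 months, and in knockout non-tumor liver of 12 months -4.03. Dppa3 averaged -4.78 in that 12-month knockout group, where 3 of 4 arrays were well above background. Such a bound sets the mean of the 8-month levels against the higher of the floor and the dim probe's own signal on each 2-month array.

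Among the genes with the smallest p that were lower at 8 months, Spsb3 (chromosome 17), a substrate adaptor of a ubiquitin ligase, had levels of -2.22, -1.33 and -1.38 at 8 months, against -0.00, 0.72 and 0.30 at 2 months. The arrays of the 2 ages did not overlap, which the choice required, and the difference was -1.98 (SE 0.30, limma adjusted p = 0.124). Inhbc (chromosome 10), the liver-expressed beta C subunit of activins, had levels of 1.11, 0.89 and 1.58 at 8 months, against 2.89, 3.83 and 3.32 at 2 months. Its difference of -2.16 (SE 0.39) was -2.24 at its other probe. Both Spsb3 and Inhbc passed after normexp and quantile normalization (adjusted p = 0.0162 and 0.0251).

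Igf2bp3 (chromosome 6), an oncofetal RNA-binding protein that is switched off after birth, had levels of -4.90, -5.36 and -7.76 at 8 months, against -2.42, -1.51 and -1.39 at 2 months. The difference was -4.24 (SE 0.74, limma adjusted p = 0.137), and -3.36 without animal 934. This probe was well above background on 5 of 6 arrays. The 2 other probes gave -4.16 and -3.65, but each was well above background on only 3 of 6 arrays. Their 8-month means were dim (-6.56 and -6.94), so the size of these differences is uncertain. Igf2bp3 had the smallest adjusted p of the named genes after normexp and quantile normalization (0.00926). Wild-type liver had means of -7.05 at 12 months and -3.09 at 2 months, so the gene was also lower in the older wild-type mice.

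Of the other genes of this kind, H13, the signal peptide peptidase, differed by -1.57 (SE 0.30) and by -1.64 at its second probe. Orai1, the pore of the store-operated calcium channel, differed by -1.52 (SE 0.29), Cpd, carboxypeptidase D, by -1.46 (SE 0.28), and Dhx38, a spliceosomal RNA helicase, by -1.35 (SE 0.26). These 4 genes passed after normexp and quantile normalization, with adjusted p-values between 0.0234 and 0.0269. C4a, a complement C4 paralog known as sex-limited protein, differed by -2.30 (SE 0.34) and was well above background on only 1 of 3 8-month arrays. Its sequence is close to that of C4b, so the probe may read both genes.

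The largest differences among genes with a symbol, no overlap between the ages and signal well above background on all 6 arrays were picked after the values were seen, 4 in each direction. The lower ones were Lars2, Klf2, Olfr644 (-3.74, SE 1.14) and Ceacam1, and the higher ones Cidec, Serpinb1a, Serpinb1c and Osbpl3. Olfr644 differed by -3.47 (SE 1.28) between 12 and 2 months in wild-type liver. Lars2 (chromosome 9), the mitochondrial leucyl-tRNA synthetase, had levels of -4.18, -0.21 and 2.19 at 8 months, against 7.27, 8.95 and 8.19 at 2 months. Its difference of -8.87 carried an SE of 2.04 (limma adjusted p = 0.138), and the levels of the 12-month knockout non-tumor group ran from -2.41 to 6.01. Klf2 (chromosome 8), a flow-responsive endothelial transcription factor, had levels of 0.37, 1.63 and 2.32 at 8 months, against 5.70, 6.04 and 5.41 at 2 months, a difference of -4.28 (SE 1.03). Its second probe gave a difference of 0.56, of the opposite sign. Ceacam1 (chromosome 7), an adhesion molecule of hepatocytes and other epithelia, had levels of -0.97, 0.07 and 0.01 at 8 months, against 3.35, 3.16 and 3.49 at 2 months, a difference of -3.63 (SE 0.71). Its other probes gave -2.28 and -1.92. By the choice of these genes, every 8-month array of Lars2, Klf2 and Ceacam1 lay below every 2-month array. In the 12-month knockout non-tumor group Klf2 ran from -0.44 to 4.05. Animals 638 and 793 of that group had the high levels of both Klf2 (3.99 and 4.05) and Lars2 (6.01 and 5.61). Animals 1109 and 702 had the low levels of both genes. Ceacam1 ran from -0.62 to 3.20 in that group, with animal 638 the highest.

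Cidec (chromosome 6), a lipid droplet protein that promotes droplet fusion, had levels of 4.58, 1.75 and 6.45 at 8 months, against -1.57, 0.80 and -0.01 at 2 months. The difference was 4.52 (SE 1.11, limma adjusted p = 0.139). In wild-type liver Cidec averaged 4.02 at 12 months and 0.67 at 2 months, so both genotypes were higher at the older age. Serpinb1a (chromosome 13), an inhibitor of neutrophil proteases, differed by 3.76 (SE 1.12) and its near-identical neighbour Serpinb1c by 3.32 (SE 1.14), which the probes may not separate. Osbpl3, an oxysterol-binding protein relative, differed by 3.03 (SE 1.05). Genes that passed after normexp and quantile normalization were ranked by the difference in that setting. The 4 most positive are given here with differences on the scale used elsewhere. They were Gpat3, a glycerol-3-phosphate acyltransferase (2.69, SE 0.63), and Raet1e, a ligand of the NK cell receptor NKG2D (2.68, SE 0.54). The others were Cd36, a fatty acid receptor (1.88, SE 0.42), and the topoisomerase Top2b (1.36, SE 0.35). In wild-type liver 12 months against 2 months gave 3.30 for Serpinb1a, 2.91 for Serpinb1c and 2.34 for Osbpl3. The same wild-type difference was 4.38 for Raet1e, 2.27 for Cd36, 1.16 for Gpat3 and -0.45 for Top2b.

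**Figure D2:**
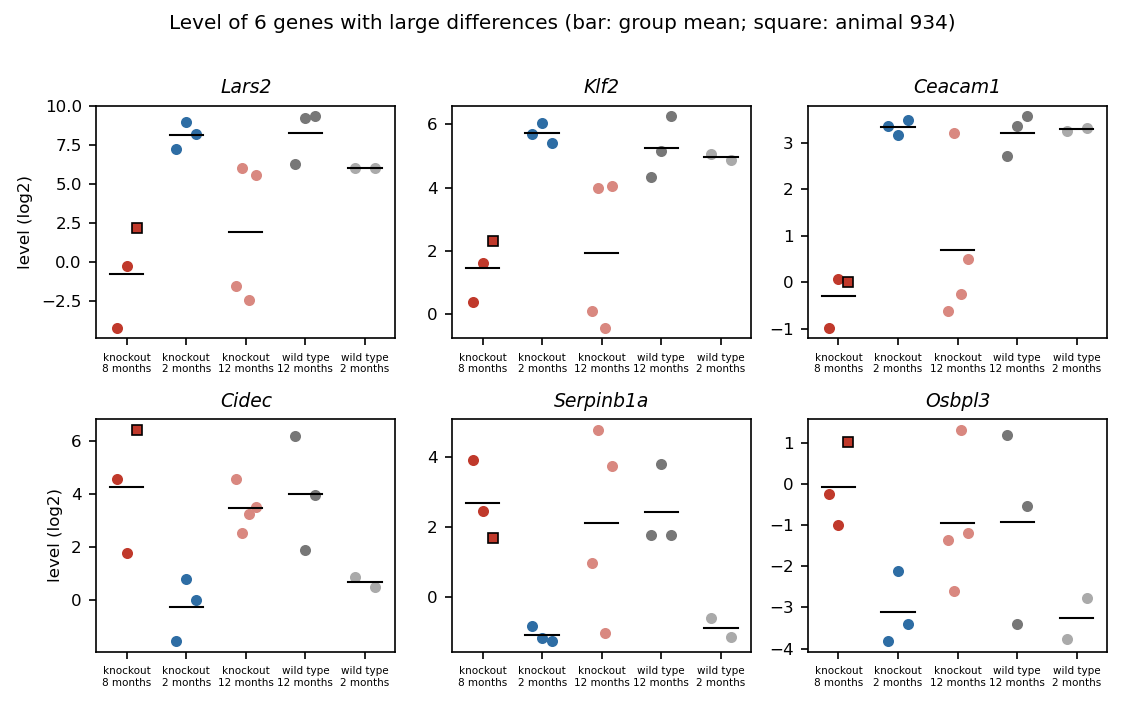
Level (log2 signal minus the array's 75th percentile, vertical axes) of 6 of the 8 genes with the largest differences (a symbol, no overlap, well above background on all 6 arrays) in knockout non-tumor liver at 8 months (red, animal 934 as a square), knockout liver at 2 months (blue), knockout non-tumor liver at 12 months (light red) and wild-type liver at 12 and 2 months (greys), with bars at group means. Lars2, Klf2 and Ceacam1 lay below the 2-month knockout arrays at 8 months, and Cidec, Serpinb1a and Osbpl3 above them.

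Of 18 markers of cholangiocytes and liver progenitors, 13 were above 0 and 7 were higher at an unadjusted p under 0.05, against 8.46% of all genes, with none lower. Their median difference was 0.55, against -0.02 for all genes, and 4 did not overlap between ages in the higher direction and 1 in the lower, against 12.7% and 11.6% of all genes. In whole liver RNA, more cells of a type and more RNA per cell cannot be told apart. Epcam (chromosome 17), an adhesion molecule of cholangiocytes and progenitors, had levels of -0.96, -2.14 and -2.56 at 8 months, against -3.33, -4.05 and -4.26 at 2 months. All 8-month arrays were above all 2-month arrays, and the difference was 2.00 (SE 0.51, limma adjusted p = 0.144).

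Spp1 (chromosome 5), osteopontin, secreted by cholangiocytes and activated macrophages, had levels of 5.93, 5.17 and 4.93 at 8 months, against 3.50, 3.31 and 3.22 at 2 months. The groups did not overlap, the difference was 2.00 (SE 0.56, limma adjusted p = 0.156), and the wild-type means were 3.62 at 12 months and 3.51 at 2 months. Aqp1, a water channel of bile duct and endothelium, differed by 1.05 (SE 0.35) without overlap. Cd24a had levels of 0.77, -0.06 and -1.98 at 8 months, against -1.73, -1.68 and -2.00 at 2 months, so animal 934 lay at the 2-month levels. For Sox9, the transcription factor of ductal cells, animal 934 lay below every 2-month animal, with levels of 0.80, 0.21 and -2.54 at 8 months, against -0.27, -0.21 and -0.18 at 2 months. Its difference was -0.29 (SE 0.65), and 0.73 without animal 934. The other Sox9 probes gave -0.35 and 0.06. Krt19, a keratin of cholangiocytes, was nearly equal at both ages, with a difference of 0.02 (SE 0.61), and 0.36 without animal 934. The list's median difference was 0.25 among animals with Ddx3y and 0.78 among animals without it. In wild-type liver, 12 against 2 months gave a list median of 0.39, with 12 genes above 0.

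**Figure D3:**
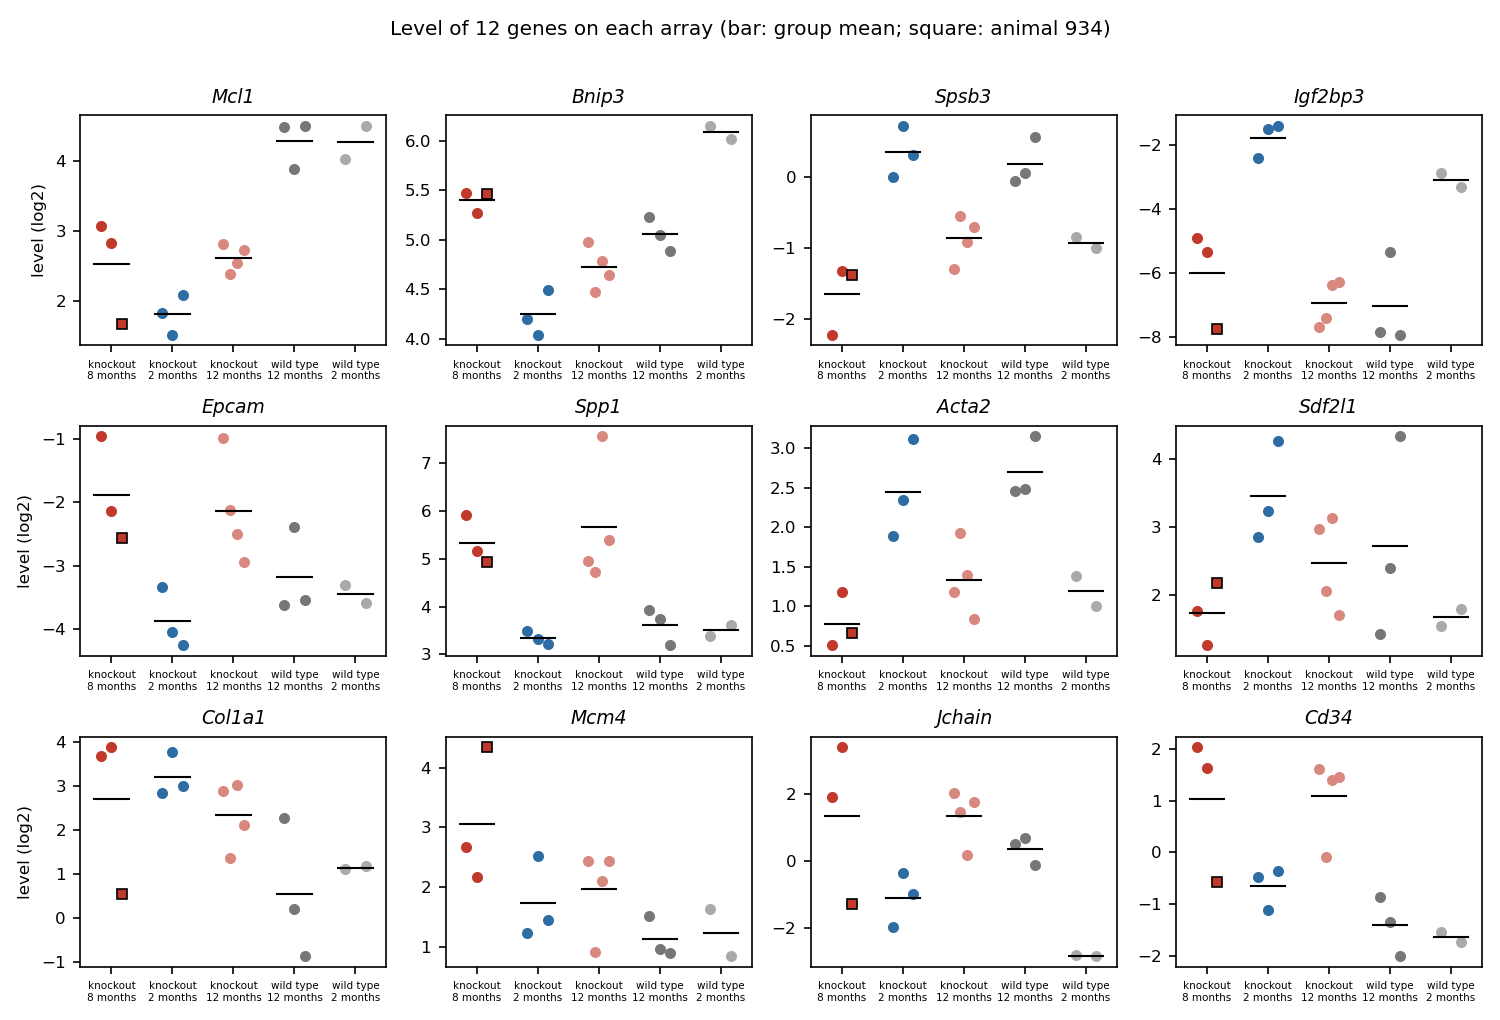
Level (log2 signal minus the array's 75th percentile, vertical axes) of 12 genes on each array of knockout non-tumor liver at 8 months (red, animal 934 as a square), knockout liver at 2 months (blue), knockout non-tumor liver at 12 months (light red) and wild-type liver at 12 and 2 months (greys), with bars at group means. Bnip3, Epcam and Spp1 lay higher at 8 than at 2 months on every knockout array and Spsb3, Igf2bp3, Acta2 and Sdf2l1 lower, while animal 934 lay apart from the other 8-month animals for Mcl1, Col1a1, Mcm4, Jchain and Cd34.

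Of 20 T and NK cell markers 17 were above 0, with a median difference of 0.62, and 3 were higher at an unadjusted p under 0.05 (against 8.46% of all genes) with none lower. Cxcr6, a chemokine receptor of liver-resident T cells, had levels of -0.17, -0.91 and -2.63 at 8 months, against -2.26, -3.33 and -2.30 at 2 months, a difference of 1.40 (SE 0.56, limma adjusted p = 0.248). Pdcd1, which encodes the checkpoint receptor PD-1, differed by 1.76 (SE 0.73) without overlap of the ages. Il7r, the interleukin-7 receptor, differed by 2.21 (SE 0.95) and was well above background on 2 of 3 8-month arrays and 1 of 3 2-month arrays. The mean level of the list was -2.08, -2.74 and -3.56 in animals 1347, 1287 and 934 at 8 months, against -3.23, -3.77 and -3.59 in the 2-month animals. Without animal 934 the median was 1.06. In wild-type liver, 12 against 2 months gave a median of 0.69 for this list, with 15 genes above 0.

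Jchain (chromosome 5), the joining chain of secreted IgA and IgM made by plasma cells, had levels of 1.89, 3.39 and -1.31 at 8 months, against -1.97, -0.37 and -0.99 at 2 months. Animals 1347 and 1287 lay above all 2-month animals and animal 934 among them. The difference was 2.43 (SE 0.87, limma adjusted p = 0.206), and 3.75 without animal 934. Of the 12 B and plasma cell markers 7 were above 0, with a median of 0.49.

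Of 23 macrophage and monocyte markers 13 were above 0 with a median of 0.06, and 0.58 without animal 934. Among them 1 was higher and 1 lower at an unadjusted p under 0.05, against 8.46% and 7.58% of all genes. Without overlap, 2 were higher and 5 lower, against 12.7% and 11.6% of all genes. Mrc1, the mannose receptor, had levels of 1.38, 1.35 and 1.26 at 8 months, against 1.11, -0.12 and 0.30 at 2 months, a difference of 0.90 (SE 0.34). Csf1r, the receptor for macrophage colony-stimulating factor, had levels of 1.72, 1.91 and 0.98 at 8 months, against 2.62, 2.55 and 2.16 at 2 months, a difference of -0.91 (SE 0.40). The complement subunit gene C1qb also lay lower on every 8-month array, by -0.94 (SE 0.45) on average. Trem2, a receptor of lipid-associated macrophages in damaged liver, had levels of 3.50, 2.67 and -0.52 at 8 months, against 0.59, 1.81 and 2.15 at 2 months. Animals 1347 and 1287 were above and animal 934 was below all 2-month animals, and the difference of 0.37 (SE 0.86) was 1.57 without it. The other Trem2 probe gave -0.37 over all animals. Animal 934 lay below both other 8-month animals on 20 of 23 macrophage markers.

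The same animal was also low on other inflammatory lists. It lay below both other 8-month animals on all 8 class II antigen presentation genes, on 17 of 18 interferon response genes and on 14 of 17 chemokine and cytokine genes. The medians of these lists were 0.46, 0.07 and 0.49 over all animals and 1.13, 0.37 and 0.65 without it. In wild-type liver, 12 against 2 months gave list medians of 1.25, -0.19 and 0.82. Ciita, the master activator of class II genes, ran against its own list, with a difference of -1.50 (SE 0.54, limma adjusted p = 0.209), lower on every 8-month array. Isg15 and Irf7, both interferon-induced, differed by -1.03 (SE 0.35) and -0.87 (SE 0.35), and Ifi44 of the same list by 0.97 (SE 0.50). Of the 18 interferon response genes 9 were above 0. Tgfb1, the fibrogenic cytokine, differed by -1.20 (SE 0.43) and the chemokine Cxcl1 by 1.50 (SE 0.81). Of the 17 chemokine and cytokine genes 12 were above 0. Neutrophil markers had a median of 0.12 over 11 genes, and -0.12 without animal 934. None reached an unadjusted p under 0.05, against 16.0% of all genes. The calprotectin subunit genes S100a9 and S100a8 differed in opposite directions, by -0.40 (SE 0.60) and 0.49 (SE 0.71). Of the 11 neutrophil markers 6 were above 0.

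**Figure D4:**
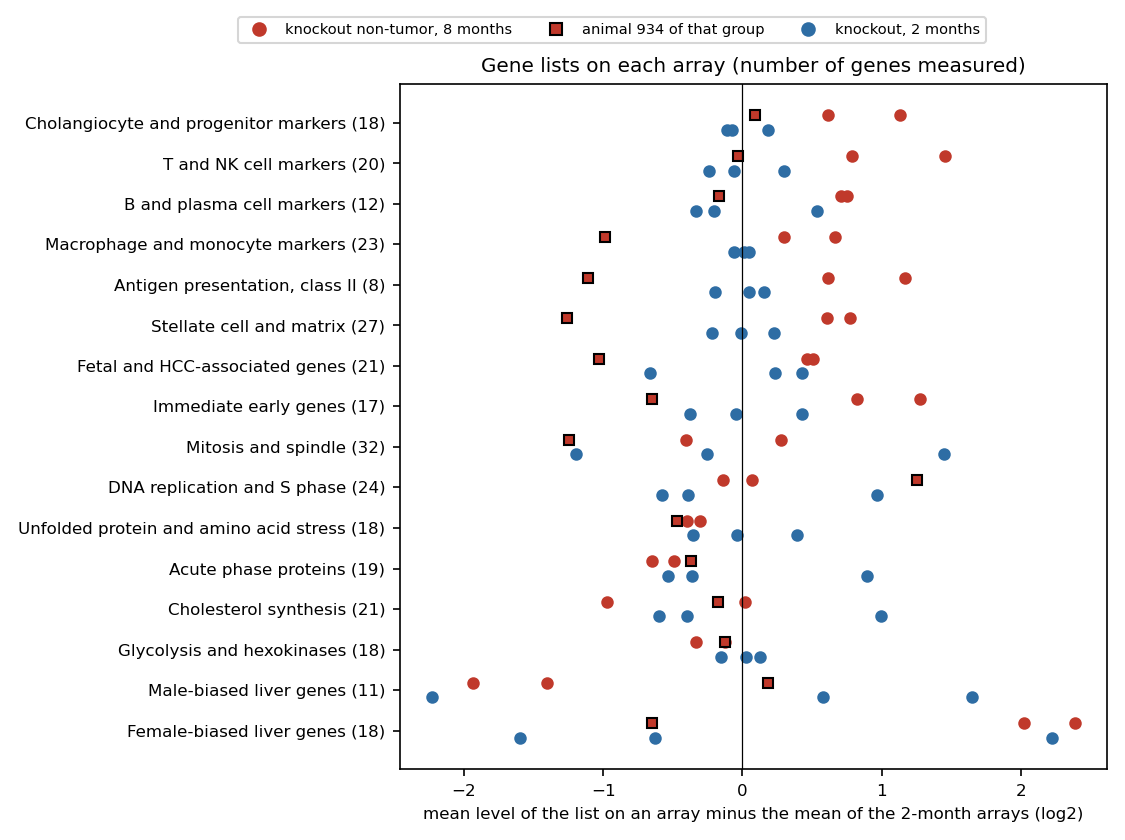
Mean level of 16 gene lists on each knockout array minus the mean of the 2-month arrays (horizontal axis, log2), for non-tumor liver at 8 months (red, upper points, animal 934 as a square) and liver at 2 months (blue, lower points), with the number of genes measured in parentheses. Animal 934 lies below the other 8-month animals for macrophage, class II and stellate genes and above them for DNA replication, and the sex-biased lists separate animals within each age.

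Matrix and stellate cell genes split in the same way. Of 27 genes 13 were above 0 and 14 below, with a median of -0.09. At an unadjusted p under 0.05, 1 was higher and 3 lower, against 8.46% and 7.58% of all genes. The list's mean level was 1.36, 1.20 and -0.67 in animals 1347, 1287 and 934 at 8 months, against 0.37, 0.58 and 0.81 at 2 months. Without animal 934 the median was 0.37. Col1a1, the main fibrillar collagen gene, had levels of 3.68, 3.89 and 0.54 at 8 months, against 2.84, 3.78 and 3.0 at 2 months. Its difference was -0.50 (SE 0.84), and 0.58 without animal 934. The other Col1a1 probes gave -1.88 and -1.02 over all animals. Vim, the mesenchymal intermediate filament vimentin, differed by 1.30 (SE 0.58), with animal 934 among the 2-month animals.

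Acta2, the smooth muscle actin of activated stellate cells and vessel walls, had levels of 0.51, 1.18 and 0.67 at 8 months, against 1.89, 2.34 and 3.12 at 2 months. The difference was -1.66 (SE 0.37, limma adjusted p = 0.138) and passed after normexp and quantile normalization (adjusted p = 0.0331). Its 2 other probes gave 1.16 and -0.18, so the probes of this gene disagree. Loxl2, a collagen cross-linking enzyme, differed by -0.98 (SE 0.36) without overlap.

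Endothelial markers had a median of 0.39 over 16 genes, with 12 above 0, and 0.58 without animal 934. In wild-type liver, 12 against 2 months gave a median of 0.415 for the same genes. Cd34, a marker of capillary endothelium, had levels of 2.03, 1.63 and -0.58 at 8 months, against -0.47, -1.10 and -0.36 at 2 months, a difference of 1.67 (SE 0.59, limma adjusted p = 0.201). Animal 934 lay among the 2-month animals, and the difference was 2.47 without it. Eng, the co-receptor endoglin, had levels of -0.38, 0.44 and 0.20 at 8 months, against 1.51, 0.93 and 1.32 at 2 months, a difference of -1.16 (SE 0.39). The 2 genes thus differed in opposite directions. Erythroid markers had a median of 0.27 over 7 genes, and 0.06 without animal 934. Markers of pancreas, muscle and fat lay between -5.69 and -4.76 in mean level on the 8-month arrays, against -5.64 and -4.88 as the lowest and highest of the 2-month arrays.

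Genes of the S phase and of mitosis differed in opposite directions in animal 934. Of 24 genes of DNA replication 20 were above 0, with a median of 0.45. At an unadjusted p under 0.05, 1 was higher, against 8.46% of all genes. None was free of overlap, while 24.3% of all genes were. Mcm4, a subunit of the replicative helicase, had levels of 2.67, 2.16 and 4.34 at 8 months, against 1.22, 2.52 and 1.45 at 2 months, a difference of 1.33 (SE 0.58, limma adjusted p = 0.284), and 0.69 without animal 934. Ccne2, cyclin E2 of the entry into S phase, differed by 1.29 (SE 0.61), and Cdt1, the replication licensing factor, by 1.11 (SE 0.63). Animal 934 was the highest 8-month animal on 21 of 24 genes of the list, and the list's median was -0.03 without it.

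Of 32 genes of mitosis and the spindle 26 were below 0, with a median of -0.39, and -0.11 without animal 934. None reached an unadjusted p under 0.05, against 16.0% of all genes. Cdc20, the activator of the anaphase-promoting complex, had levels of 1.62, 2.36 and 0.28 at 8 months, against 2.52, 4.66 and 1.46 at 2 months, a difference of -1.46 (SE 0.89). Ccnb1, mitotic cyclin B1, had levels of -2.07, -1.26 and -3.97 at 8 months, against -1.22, 0.81 and -1.97 at 2 months, a difference of -1.64 (SE 1.09). Ube2c, a ubiquitin-conjugating enzyme of mitotic exit, differed by -1.23 (SE 0.67) and the topoisomerase Top2a by -0.68 (SE 0.93). For these genes animal 64 was the highest 2-month animal. Animal 934 was the lowest 8-month animal on 25 of 32 mitosis genes. The list's median was -1.96 among animals with Ddx3y and 1.08 among those without it.

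**Figure D5:**
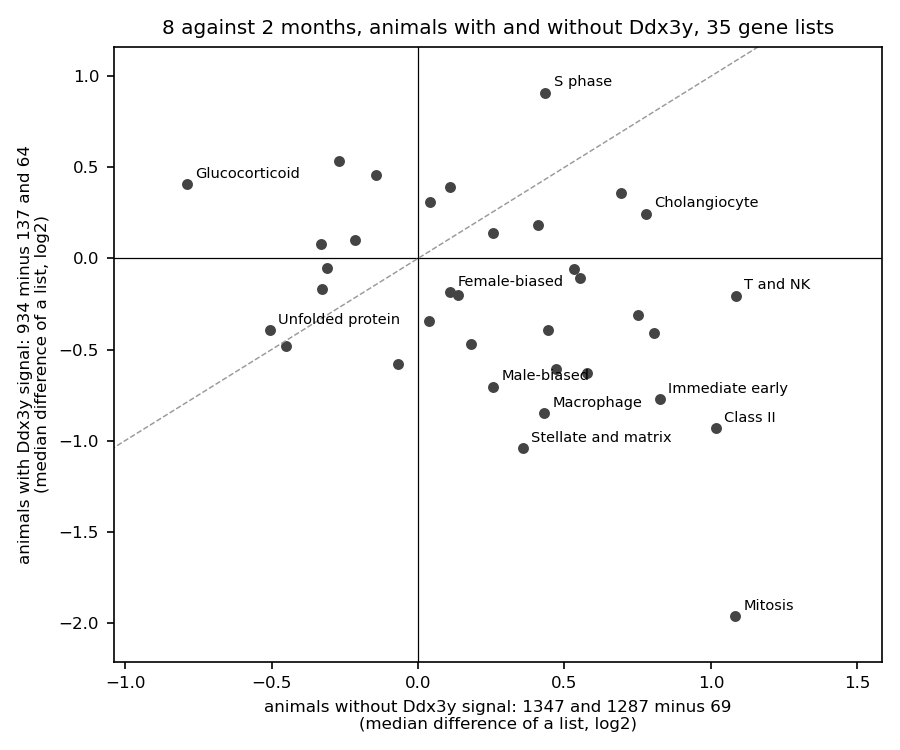
Median difference between 8 and 2 months of each gene list (points) among animals without Ddx3y signal (1347 and 1287 minus 69, horizontal axis) and among animals with it (934 minus 137 and 64, vertical axis), both in log2, with a dashed line of equal values. Mitosis lies at 1.08 and -1.96, S phase at 0.44 and 0.91, and unfolded protein genes at -0.51 and -0.39.

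Of 7 measured survival proteins and effectors 5 were below 0, with a median of -0.25. Bcl2l1, which encodes Bcl-xL, had levels of 0.39, 0.81 and -0.14 at 8 months, against 0.48, 1.15 and 0.62 at 2 months, a difference of -0.40 (SE 0.34). Bax, the pore-forming effector, differed by -0.54 (SE 0.24). Of 10 BH3-only genes 7 were above 0 with a median of 0.33, and 0.58 without animal 934. At an unadjusted p under 0.05, 1 was higher (Bnip3) and 2 were lower, against 8.46% and 7.58% of all genes. Bad had levels of -5.00, -3.49 and -3.85 at 8 months, against -2.92, -2.45 and -2.37 at 2 months, a difference of -1.53 (SE 0.39, limma adjusted p = 0.144), and Bik differed by -0.96 (SE 0.45).

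Of 18 p53 targets 12 were above 0 with a median of 0.19, and 0.53 without animal 934. At an unadjusted p under 0.05, 3 were higher and 1 lower, against 8.46% and 7.58% of all genes. Ccng1, cyclin G1, had levels of 1.97, 1.23 and 2.13 at 8 months, against 1.02, 0.51 and 0.85 at 2 months, a difference of 0.99 (SE 0.30, limma adjusted p = 0.168). Trp53inp1, a stress-induced protein of autophagy, differed by 1.06 (SE 0.46; -0.48 at its other probe) and Ei24, a membrane protein of the endoplasmic reticulum, by 0.66 (SE 0.23). The 3 genes did not overlap between the ages. Cdkn1a, the cell cycle inhibitor p21, had levels of 0.10, -2.30 and -1.50 at 8 months, against -0.71, -0.82 and -0.23 at 2 months, and its difference of -0.64 (SE 0.64) ran against these 3.

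Genes of the unfolded protein response were mostly below 0. In this response ATF6 and XBP1 enter the nucleus and switch on chaperones through the endoplasmic reticulum stress element, spelled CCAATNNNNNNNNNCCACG, while ATF4 induces genes of amino acid supply. Of 18 genes 15 were below 0 with a median of -0.33, and -0.55 without animal 934, and 3 were lower at an unadjusted p under 0.05 (against 7.58% of all genes) and none higher. The median was -0.39 among animals with Ddx3y and -0.51 among animals without it. The element was searched on both strands in windows of 300 bases from 250 before to 50 after the start, taken from RefSeq on build GRCm38.p6, where all 18 genes matched a window. It was found in 3 of the 18 genes, and in 37 of 27025 genes (0.137%) with a window in all. A match is a description of the letters and no evidence of binding. The windows of 2 of these 3 genes, the chaperone Hspa5 (BiP) at chr2:34771840-34772139 on the plus strand and the folding factor Creld2 at chr15:88819396-88819695 on the plus strand, are shown because they hold the element and the levels of both genes follow. The third gene, the chaperone Hsp90b1, holds 2 matches and differed by -0.09 (SE 0.27). Capitals mark the CCAAT and CCACG ends, read on the opposite strand in Creld2.
Hspa5: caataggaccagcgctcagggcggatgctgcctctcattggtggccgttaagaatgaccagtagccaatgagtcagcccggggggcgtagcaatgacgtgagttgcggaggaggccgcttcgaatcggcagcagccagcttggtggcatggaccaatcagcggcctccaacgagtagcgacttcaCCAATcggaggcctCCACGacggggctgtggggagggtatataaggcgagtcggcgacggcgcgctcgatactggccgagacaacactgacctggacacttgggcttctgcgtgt
Creld2: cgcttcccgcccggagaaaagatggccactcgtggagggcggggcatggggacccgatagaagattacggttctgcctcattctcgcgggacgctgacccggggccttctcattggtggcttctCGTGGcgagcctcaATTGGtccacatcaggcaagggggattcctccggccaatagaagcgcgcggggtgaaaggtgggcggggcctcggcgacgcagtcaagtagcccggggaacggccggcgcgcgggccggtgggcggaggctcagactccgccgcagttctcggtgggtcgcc

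Creld2 had levels of 4.39, 3.66 and 5.44 at 8 months, against 4.80, 5.97 and 7.47 at 2 months, a difference of -1.58 (SE 0.71, limma adjusted p = 0.293). The lowest 2-month animal lay below the highest 8-month animal. Hspa5, named here after its values were seen, had levels of 7.16, 6.91 and 7.30 at 8 months, against 7.22, 7.83 and 8.18 at 2 months, a difference of -0.62 (SE 0.36). Sdf2l1 (chromosome 16), a cofactor of the chaperone BiP whose window holds no match to these letters, had levels of 1.76, 1.26 and 2.18 at 8 months, against 2.85, 3.23 and 4.26 at 2 months. Its groups did not overlap, and the difference was -1.72 (SE 0.61, limma adjusted p = 0.206). Atf4, the transcription factor of the amino acid branch, had levels of 1.24, 1.39 and 1.26 at 8 months, against 1.84, 2.30 and 1.87 at 2 months, a difference of -0.71 (SE 0.28).

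Immediate early genes had a median of 0.49 over 17 genes, 12 of them above 0, and 1.09 without animal 934. In wild-type liver, 12 against 2 months gave a median of 0.36 for the same genes. Junb had levels of 6.01, 7.86 and 6.66 at 8 months, against 5.74, 5.10 and 5.20 at 2 months. Its difference was 1.50 (SE 0.60, limma adjusted p = 0.248), and 0.38 at its other probe. Fosl2 differed by 0.93 (SE 0.33), and by -0.26 at its other probe. Both encode AP-1 subunits and did not overlap between the ages. Among fetal and liver cancer-associated genes 13 of 21 were above 0 with a median of 0.31, and 0.83 without animal 934, with 4 higher and 4 lower at an unadjusted p under 0.05 (against 8.46% and 7.58% of all genes). Phlda2, an imprinted growth regulator, differed by -1.65 (SE 0.48) without overlap, and by -1.59 at its other probe. Abcc4, an efflux transporter, differed by 1.74 (SE 0.69) with overlap, and by 0.07 at its other probe. Tff3, a trefoil peptide, had levels of 0.43, 1.06 and -3.07 at 8 months, against 0.37, 4.95 and 3.63 at 2 months, a difference of -3.51 (SE 1.52). Its levels overlapped, as did those of Afp, the fetal albumin, which differed by -0.82 (SE 0.68). In the other direction, Ly6d differed by 2.16 (SE 1.08), Igf2 by 1.8 (SE 1.6) and Gpc3 by 0.85 (SE 1.07). Their levels overlapped as well.

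Of 19 acute phase proteins 14 were below 0 with a median of -0.41, 2 were lower at an unadjusted p under 0.05 (against 7.58% of all genes) and 3 did not overlap in the lower direction (against 11.6%), shares near the background. The median was -0.73 without animal 934. Itih4, an inter-alpha-trypsin inhibitor chain, had levels of 4.13, 5.22 and 4.66 at 8 months, against 5.80, 6.88 and 5.90 at 2 months, a difference of -1.52 (SE 0.36, limma adjusted p = 0.138). It passed after normexp and quantile normalization (adjusted p = 0.0397). Serpina3n, an acute phase protease inhibitor, differed by -1.54 (SE 0.55). Apoa1, the main protein of HDL, had levels of 6.29, 6.65 and 6.82 at 8 months, against 7.67, 8.44 and 7.55 at 2 months, a difference of -1.30 (SE 0.36, limma adjusted p = 0.156). The 17 hepatocyte identity genes as a list had a median of -0.10. At an unadjusted p under 0.05, 2 were higher and 3 lower, against 8.46% and 7.58% of all genes. The 2 higher ones were F9 (0.62, SE 0.25), without overlap, and Foxa2 (0.90, SE 0.41).

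Of 13 periportal urea and amino acid genes 9 were below 0, with a median of -0.36, and 0.02 without animal 934. Nags (chromosome 11), the synthase of the activator of the urea cycle, had levels of 2.30, 3.12 and 2.83 at 8 months, against 3.78, 4.21 and 4.01 at 2 months, a difference of -1.25 (SE 0.30, limma adjusted p = 0.138). It was 1 of the genes that passed after normexp and quantile normalization (adjusted p = 0.0432). The 17 pericentral genes had a median of -0.03, and Cyp1a2, a pericentral P450 that metabolises caffeine, differed by -1.92 (SE 0.84) without overlap. The 24 P450 genes in all had a median of 0.06, with 4 higher and 3 lower without overlap, near the 12.7% and 11.6% of all genes.

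Genes of bile acid handling differed in both directions, with a median of -0.03 over 18 genes. Cyp27a1, the sterol 27-hydroxylase that opens the acidic pathway, had levels of 2.32, 2.70 and 2.42 at 8 months, against 4.06, 4.13 and 3.31 at 2 months, a difference of -1.36 (SE 0.56, limma adjusted p = 0.259). Akr1d1, the 5-beta-reductase of bile acid synthesis, had levels of 1.47, 1.65 and 0.47 at 8 months, against -0.23, -0.31 and -0.16 at 2 months, a difference of 1.43 (SE 0.34, limma adjusted p = 0.138). The groups did not overlap for either gene. Slc10a1, the bile acid uptake transporter NTCP, differed by -1.06 (SE 0.41).

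Cholesterol synthesis genes had a median of -0.38 over 21 genes, 13 below 0 and 3 lower at an unadjusted p under 0.05, against 7.58% of all genes. Mvd, the decarboxylase of the mevalonate pathway, differed by -1.71 (SE 0.62) and was lower on every 8-month array. Among 25 genes of fatty acid oxidation the median was 0.09. Angptl4, an inhibitor of lipoprotein lipase, had levels of 5.63, 5.32 and 7.14 at 8 months, against 5.66, 2.79 and 3.89 at 2 months, a difference of 1.92 (SE 0.72), and Hadha, the mitochondrial trifunctional protein subunit, differed by -0.68 (SE 0.25). Lipogenesis genes had a median of -0.43 over 17 genes, with 8 above 0, and -0.18 without animal 934.

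Of 18 glycolysis genes 6 were above 0, with 4 higher and 4 lower without overlap between the ages, against 12.7% and 11.6% of all genes. Gapdh had levels of 5.33, 5.79 and 6.52 at 8 months, against 6.70, 7.35 and 7.11 at 2 months, a difference of -1.18 (SE 0.38, limma adjusted p = 0.181). Pfkl, liver phosphofructokinase, differed by -1.15 (SE 0.36), while Slc2a2, the glucose transporter GLUT2, was higher on every 8-month array by 1.05 (SE 0.34) on average. The clock list (19 genes, median -0.03), the glucocorticoid-responsive list (12 genes, median -0.03) and the NRF2 target list (17 genes, median 0.20) complete the lists.

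Sex-biased liver genes separated animals with and without Ddx3y within each age. The 18 female-biased genes had mean levels of 2.96, 3.32 and 0.28 in animals 1347, 1287 and 934 at 8 months, against -0.66, 0.31 and 3.16 in animals 137, 64 and 69 at 2 months. The 3 animals without Ddx3y had the highest values. The 11 male-biased genes had mean levels of 3.11, 2.58 and 4.70 at 8 months, against 6.17, 5.09 and 2.29 at 2 months, with the opposite order. Serpina1e, a male-biased alpha-1-antitrypsin gene, differed by -1.23 (SE 0.34, limma adjusted p = 0.153). The medians over all animals were 0.62 for the female-biased and -0.99 for the male-biased genes, against -0.18 and -0.70 among animals with Ddx3y and 0.11 and 0.26 among animals without it.

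The difference between the ages in the knockout was also set against that in wild-type liver, where the older age was 12 months. The contrast of both differences gave 1 gene past the threshold, 0.0037% of 27020, and 4050 genes at an unadjusted p under 0.05 (15.0%), with a positive contrast for 7.53% of all genes and a negative one for 7.46%. The gene was Gpcpd1 (chromosome 2), a glycerophosphocholine phosphodiesterase. It had levels of 2.76, 3.96 and 2.65 at 8 months and 1.96, 1.82 and 1.88 at 2 months in knockout liver, against 2.00, 1.33 and 1.54 at 12 months and 4.51 and 5.10 at 2 months in wild-type liver. The difference between ages was 1.24 (SE 0.36) in knockout and -3.18 (SE 0.40) in wild-type liver, and the contrast was 4.42 (SE 0.54, limma adjusted p = 0.0240). The 2-month wild-type arrays were the highest of these groups. Under other settings the count of genes ran from 0 to 466, and it was 0 with the sex read from Ddx3y as a term.

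Between 12 and 8 months, no gene passed in knockout non-tumor liver (0 of 27020, smallest adjusted p 0.911). At an unadjusted p under 0.05 there were 1420 genes (5.26%), of which 303 (1.12%) were higher and 1117 (4.13%) lower at 12 months. The comparison shares no array with the 2-month group. Means of some genes described above, all picked after their values were seen, were as follows at the later 2 ages. Spp1 averaged 5.66 at 12 months and 5.34 at 8 months, Cd34 averaged 1.09 at 12 months and 1.03 at 8 months, Jchain 1.34 at 12 months and 1.32 at 8 months, and Epcam -2.14 at 12 months and -1.88 at 8 months. Bnip3 averaged 4.72 at 12 months and 5.40 at 8 months, a difference of -0.68.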

How the data were processed

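The 25 array files hold intensity values per spot written by Agilent Feature Extraction, 1 colour (Cy3), per the file headers. Per the file headers, background subtraction and spatial detrending had been applied to the processed signal of each array, with no scaling across arrays. A series matrix deposited by the authors holds log2 values whose ranks follow the uncorrected median signal and whose normalization between arrays stays unknown. Column medians of the matrix lie between 6.57 and 6.58. The submitters' processing notes name limma without stating its use.

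Log2 processed signal minus each array's 75th percentile was averaged over the spots of a probe, and each gene was represented by its brightest probe. Accessions printed with the 41174 probes named 24375 of them through RefSeq, build GRCm38.p6. A gene was kept when well above background on at least 2 of the 18 arrays without tumor tissue, giving 27020 genes, of which 11406 carry no symbol. These 18 arrays in 6 groups were fitted with limma 3.58.1 in R 4.3.3 (two-sided, 12 residual degrees of freedom, Benjamini-Hochberg over all genes, threshold 0.05), and the fit was tested on simulated data. The labels give separate animals as replicates, and the number of arrays limits the precision. Alternatives changed background correction (normexp with offset 50 on the median spot and background signals, because the files used here hold no mean signal), scaling, filter, probe choice, blocks and the arrays included.

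Genes named are Mcl1, up to 8 in each direction with the smallest p whose arrays do not overlap, and a panel. Up to 4 members of each described list were named as well, those with the smallest p in this same comparison. Such members are therefore not typical of their list. Exceptions are said to have been picked after their values were seen. The members and the lists were chosen with earlier results of these data known.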

Additional observations from a re-analysis of the deposited data

Results flagged for a closer look

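The contrast of the 2 differences between ages passed the threshold for Gpcpd1, which means that the difference between older and younger liver itself differed between the genotypes. It was 4.42 (SE 0.54, limma adjusted p = 0.0240) on the log2 scale. The levels in knockout liver were 2.76, 3.96 and 2.65 at 8 months and 1.96, 1.82 and 1.88 at 2 months, and in wild-type liver 2.00, 1.33 and 1.54 at 12 months and 4.51 and 5.10 at 2 months. In hemizygous liver of 2 months the levels were 4.07, 4.30 and 4.19. The older ages differ between the genotypes (8 and 12 months), and the wild-type group of 2 months holds 2 arrays. Groups of 3 arrays were not tested for single arrays that stand apart.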

How the results depend on the processing

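Against 0 genes past the threshold between 8 and 2 months, 385 passed with normexp, 2 with quantile-normalised processed signal (Dppa3, 3.57, and 1 probe with no symbol, -3.64), 6 with arrays centred on the median (1 higher, 5 lower), 194 in the series matrix, 62 when every array had to be well above background, 6 with limma's trend, 21 with scan day as a block, 1 with the Xist level as a covariate (no symbol), and 1 with slide as a fixed block in all 25 arrays (Bcl7b, 11.12). Leaving out 1 array gave 0 to 549 genes: 549 without animal 638, 21 without 641, 1 without 137 (no symbol) and 1 without 69 (Olfr1457). Genes named with these counts were picked after their values were seen. The contrast with wild-type liver (1 gene) gave 116, 6, 0, 31, 19, 27 and 10 under the first 7 of these settings (scan day last), 4 with animal as a random block, 6 with slide as a fixed block, and 0 with slide as a random block, Xist or sex from Ddx3y. Leaving out 1 array gave 0 to 466, with 466 without 638, 80 without 641 and 14 without 1347. Between 12 and 8 months leaving out 1 array gave 0 to 1, the 1 being Tnfsf12 without 1347. The Mcl1 difference kept its sign and stayed short of the threshold, between 0.44 without 1347 and 1.13 without 934. Centring on the median moved the median of all genes to 0.13, with 56.5% above 0. The cause of these changes was not tested.

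Slide as a fixed block could not be fitted in the 18 arrays, and with all 25 the median SE was 1.1, against 0.50. That setting and the block for sex from Ddx3y were chosen after seeing the data. With slide fixed, 28 of 131 values reversed: Bnip3 -0.47, Bad 0.0185, Bik 0.48, Bcl2l1 0.56, Ei24 -0.37, Cdkn1a 1.38, Ube2c 0.51, Ccnb1 0.74, Top2a 2.69, Csf1r 0.69, C1qb 1.46, Trem2 -0.34, S100a9 2.15, Ciita 0.80, Tgfb1 0.97, Isg15 1.36, Irf7 1.69, Loxl2 0.12, Eng 0.15, Tff3 1.11, Afp 2.12, Akr1d1 -0.041, Slc2a2 -1.10, Serpina3n 0.22, Gpcpd1 -0.53, Olfr644 0.69, Cidec -1.78 and Osbpl3 -0.23. Trem2 was -0.0015 with the mean of its probes, -0.10 without 137 and -0.03 without 1287, and ran from -0.44 without 1347 to 1.57 without 934. With 1 array left out, Top2a ran from -1.28 (without 69) to 0.11 (without 64), S100a9 from -0.76 (without 137) to 0.16 (without 64), Sox9 from -0.94 (without 1347) to 0.73 (without 934) and Col1a1 from -1.10 (without 1287) to 0.58 (without 934). Of 2358 values with 1 array left out, 2312 were counted as unchanged, and of 2086 under the remaining settings 2015 were. For a gene, unchanged meant the same direction and side of the threshold. For a list median it meant a shift smaller than the list's spread between arrays, and for a count a similar size. A list median that changed sign could thus count as unchanged, and only genes could count as reversed. No paired analysis was possible because the 2 groups share no animal number. Signal near background limits Dppa3, Eml6, C4a and Igf2bp3.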
